A study of Homo sapiens with 12 samples.

Results

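The 10 genes described here are YAP1 and WWTR1, which encode the transcriptional coactivators YAP and TAZ, the DNA-binding partners TEAD1, TEAD2, TEAD3 and TEAD4, and the target genes CCN1 (CYR61), CCN2 (CTGF), AMOTL2 and ANKRD1. They were chosen by symbol, each had 1 row of the array table annotated to it alone, and all 10 were among the 22465 genes tested. Total RNA was measured on Affymetrix whole-transcript arrays in 5637 cells given CM272, RT112 cells given CM272 and untreated RT112 cells (called RT112 control), with 3 arrays a group. RT112 and 5637 are established human bladder cancer cell lines, and CM272 is a small molecule that blocks both the G9a histone methyltransferase and DNA methyltransferases, added at its IC50. The duration of treatment is not given in the sources used here, each line is a single line, and nothing in the labels says that replicates came from separate cultures, so a p-value here is set against array-to-array spread alone. The 3 arrays of untreated 5637 were left out, because over the 67528 transcript-cluster rows their mean correlated with that of treated 5637 at only r = 0.0274, so their rows cannot be given genes. The effect of CM272 in 5637 therefore cannot be read from these values, and treated 5637 serves as a comparison of treated lines only.

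YAP and TAZ carry the output of the Hippo pathway, a kinase cascade that responds to cell contact, shape and stiffness of the surroundings. When the kinases LATS1 and LATS2 are active they phosphorylate YAP and TAZ, which are then held in the cytoplasm or degraded. When the kinases are inactive, YAP and TAZ enter the nucleus, bind TEAD proteins at the motif GGAATG and raise transcription of target genes, among them CCN1, CCN2, AMOTL2 and ANKRD1. Transcript levels do not show where the proteins are or whether they are phosphorylated.

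Promoter windows were searched for the motif through which TEAD proteins bind. RefSeq windows of 250 bases before a transcription start (build GRCh38.p14) were matched by symbol for 7 of the 10 genes, in 10 windows, and searched on both strands for GGAATG; CCN1, TEAD1 and TEAD4 were not searched. The windows printed here are those of the 3 matched target genes that hold it, 5′ to 3′ along the gene, with GGAATG or its reverse complement CATTCC in capitals. They lie on the minus strand at chr6:131951373-131951622 for CCN2, chr10:90921088-90921337 for ANKRD1 and chr3:134374448-134374697 for the second listed start of AMOTL2.
CCN2: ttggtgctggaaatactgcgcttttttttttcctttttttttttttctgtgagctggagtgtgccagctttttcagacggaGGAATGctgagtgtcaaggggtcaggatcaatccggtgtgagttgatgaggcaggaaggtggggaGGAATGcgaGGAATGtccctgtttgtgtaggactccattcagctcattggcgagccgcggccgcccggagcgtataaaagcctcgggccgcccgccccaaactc
ANKRD1: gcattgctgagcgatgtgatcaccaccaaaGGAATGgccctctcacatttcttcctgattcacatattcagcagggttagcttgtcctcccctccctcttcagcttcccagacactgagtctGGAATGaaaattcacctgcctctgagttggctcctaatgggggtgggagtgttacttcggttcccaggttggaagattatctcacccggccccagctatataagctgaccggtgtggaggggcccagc
AMOTL2: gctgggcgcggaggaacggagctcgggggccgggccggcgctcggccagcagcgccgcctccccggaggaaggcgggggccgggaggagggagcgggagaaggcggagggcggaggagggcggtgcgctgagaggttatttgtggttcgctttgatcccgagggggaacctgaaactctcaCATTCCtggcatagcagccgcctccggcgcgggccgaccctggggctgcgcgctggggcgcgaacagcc
The CCN2 window held 3 matches, which began at bases -169, -104 and -95 from the start. The ANKRD1 window held 2, at -220 and -128, and 1 match at -195 to TGANTCA, the AP-1 motif, which did not overlap them. The AMOTL2 window held 1 match at -69, in the reverse orientation, and the window of its other start held 0. Outside the target genes the YAP1 window held 1 match, at -162, and the windows of WWTR1, TEAD2 and TEAD3 held 0. Of all 35116 windows of this length, 11.9% held at least 1 GGAATG, 0.94% at least 2 and 0.0826% at least 3. The AP-1 motif was in 6.57% of all windows, and the CArG box, the motif of the serum response factor, was in 1.16% of all windows and in 0 of the 10 windows here. These matches describe the letters in the windows and are not measurements of binding.

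Array medians differed between treated and untreated cells, which bears on every direction given for CM272. The median log2 value over transcript clusters lay between 4.36 and 4.40 in treated RT112 arrays, against 5.01 and 5.06 in RT112 control arrays, and between 4.32 and 4.36 in treated 5637 arrays. In RT112 the median gene accordingly changed by -0.57 (log2) as deposited, by 0.08 with arrays centred on their medians and by -0.02 after quantile normalization. Each RT112 change of the 10 genes is therefore given on the deposited and the centred scale. For other genes, a change given without a scale is that of the deposited values. The words "in all 3 scalings" mean that limma called a gene in the same direction (adjusted p under 0.05 over all genes) on the deposited, centred and quantile-normalized values. Exact ties also set the treated arrays apart: 12.1% of genes had 3 equal values in treated RT112, 15.3% in treated 5637 and 0% in RT112 control. Among the genes described here this was so for CCN2 and WWTR1 in treated RT112 and for AMOTL2 in treated 5637. Between the treated lines, a median of 15.2% of genes held exactly the same value in an array pair. This was so in at least 1 of the 9 pairs for WWTR1 alone among the 10 genes and for 37.7% of all genes. Over transcript clusters, a median of 7311 rows tied in a pair of arrays from the 2 treated lines. In a pair of treated and control RT112 arrays the median was 0 rows and the highest 1. Whether treated and control arrays were processed apart is not known, and the part of such a step in the RT112 changes was not tested. All 8 epithelial markers lay above the array median in each group, EPCAM for instance at 10.31 in treated 5637, 10.04 in treated RT112 and 9.03 in RT112 control. KRT19 ran the other way, at 9.21, 10.23 and 12.07 in the same order, as did KRT7 at 10.34, 10.48 and 11.18 and CLDN4 at 5.61, 5.90 and 6.65. Summed as deposited, the 8 gave 81.0 to 81.6 in treated 5637 and 85.3 to 86.3 in treated RT112. RT112 control gave 84.5 to 85.3. In all 3 scalings, treated RT112 had 5 of the 8 higher and 1 lower than RT112 control, beside 10.8% and 27.8% of all genes. Treated 5637 had 0 higher and 6 lower than treated RT112, beside 16.2% and 13.5%. Of 7 measured leukocyte markers 3 lay above the array median in each group, TYROBP highest, at 4.87 in treated 5637, 4.84 in treated RT112 and 6.05 in RT112 control, while PTPRC lay below it in each. Their summed log2 values as deposited were between 29.5 and 29.7 in treated 5637 and 29.5 and 29.8 in treated RT112. In RT112 control they were between 33.5 and 33.9, where the higher array median also raises each sum. In treated RT112 limma called 1 of the 7 higher and 6 lower as deposited, beside 10.8% and 74.2% of all genes. With arrays centred 2 were called higher and 3 lower, beside 40.0% and 27.8%. Of 7 stromal and endothelial markers 2 lay above it in treated 5637, 3 in treated RT112 and 1 in RT112 control, with COL1A1 at 7.25, 5.34 and 5.43 and PECAM1 below it in each. Their sums as deposited lay between 31.6 and 31.9 in treated 5637 and 29.1 and 30.0 in treated RT112. In RT112 control they lay between 32 and 32.3, again with the higher array median. In treated RT112 limma called 0 of the 7 higher and 4 lower as deposited, beside 10.8% and 74.2% of all genes. With arrays centred 5 were called higher and 1 lower, beside 40.0% and 27.8%, so the direction turned with the scale. The part of all these markers in the results was not tested.

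The first comparison asked how YAP, TAZ and TEAD genes differ in RT112 with and without CM272. CCN1, CCN2, AMOTL2, TEAD1, YAP1 and TEAD3 rose in all 3 scalings, and none of the 10 genes fell in all 3. Over all genes tested, 10.8% were called higher in all 3 scalings and 27.8% lower. As these are bulk RNA samples, fewer cells expressing a gene and less RNA per cell cannot be told apart. The rises were largest for the matricellular genes CCN2 and CCN1 and for TEAD1. TAZ transcript (WWTR1) and TEAD4 stayed close to the median change of all genes, so whether they were called lower depended on the scale used.

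CCN2 encodes a secreted matricellular protein also known as connective tissue growth factor. Its window above held the most TEAD motifs among the 7 genes searched, and a link between motifs and changes was not tested. Its deposited log2 level was 6.63 in each of the 3 treated RT112 arrays, against 4.94, 5.16 and 5.13 in the RT112 control arrays. All treated arrays lay above all control arrays, and the control mean of 5.08 lay close to the median of those arrays, 5.03. The log2 change was 1.55 ± 0.11 (SE, n = 3 each; limma adjusted p = 2.43e-06), a 2.94-fold rise, and 2.20 ± 0.12 with arrays centred, a 4.6-fold rise. Only 1.35% of all genes tested had a higher log2 change than CCN2, a share that centring does not alter.

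CCN1 encodes the related matricellular protein known as CYR61, which binds integrins. Its level was 7.35, 7.24 and 7.12 in treated RT112, against 5.93, 5.91 and 6.05 in RT112 control, so the groups were separated by more than the whole range of either. The log2 change was 1.27 ± 0.06 (adjusted p = 3.43e-07, limma), or 2.42-fold, and 1.92 ± 0.07, or 3.79-fold, with arrays centred. CCN1 stood beside CCN2 near the upper end, with 1.99% of all genes changing more in the upward direction.

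AMOTL2 encodes an angiomotin-family scaffold protein that binds YAP and restrains it, and its transcript is itself a YAP target. It was measured at 7.68, 7.60 and 7.63 in treated RT112, against 6.99, 6.97 and 7.01 in RT112 control. The change of 0.64 ± 0.04 (adjusted p = 6.56e-07, limma) was small but exceeded the spread of both groups, whose SDs were 0.04 and 0.02. With arrays centred it was 1.29 ± 0.04, or 2.45-fold.

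ANKRD1, which encodes a nuclear ankyrin-repeat protein and is a much used YAP readout, did not follow the other target genes. Its level was 4.43, 4.13 and 4.39 in treated RT112, against 4.54, 4.52 and 4.46 in RT112 control, and both group means lay below the median of their arrays. On the deposited values limma called it lower, by -0.19 ± 0.08 (adjusted p = 0.0446), and on centred values higher, by 0.46 ± 0.07 (adjusted p = 0.000489), so no direction can be given for it. The deposited call was also lost on leaving out replicate 2 of treated RT112 or any single array of RT112 control or treated 5637, with changes between -0.21 and -0.09 and limma adjusted p between 0.0559 and 0.115.

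**Figure D1:**
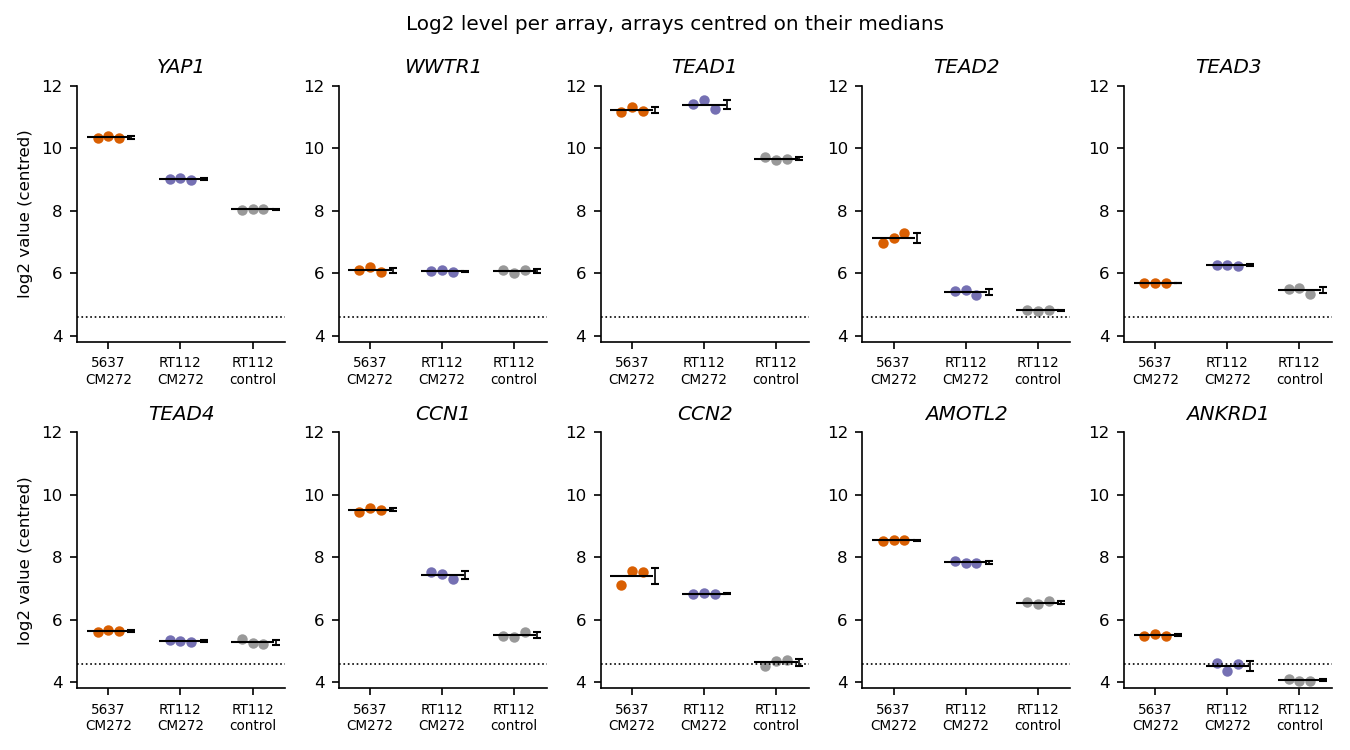
Log2 level of each gene in each array after centring arrays on their medians (vertical axis), by group; points are arrays, lines the group means, bars the SD (n = 3) and the dotted line the common array median of 4.58. CCN1, CCN2, AMOTL2, TEAD1, YAP1, TEAD3, TEAD2 and ANKRD1 lie higher in treated than in control RT112 on this scale. WWTR1 lies at about 6.1 in all 3 groups, and ANKRD1 lies below the dotted line in both RT112 means.

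Of the coactivators, YAP1 rose and WWTR1 did not rise. YAP1 was measured at 8.82, 8.82 and 8.80 in treated RT112, against 8.47, 8.53 and 8.50 in RT112 control. The change was 0.32 ± 0.04 (adjusted p = 4.07e-05, limma), or 1.24-fold, and 0.96 ± 0.04, or 1.95-fold, with arrays centred. WWTR1 was at 5.86 in each of the 3 treated arrays, against 6.54, 6.48 and 6.53 in the control arrays. Its deposited change of -0.65 ± 0.05 (adjusted p = 1.96e-06, limma) was nearly that of the median gene. With arrays centred the WWTR1 change was -0.00, with a 95% confidence interval from -0.13 to 0.12 and adjusted p = 0.954 (limma). The 3 treated values were equal as deposited, so this interval may be too narrow.

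The 4 TEAD genes, whose products share a DNA-binding domain, did not move as a block. TEAD1 was measured at 11.22, 11.32 and 11.07 in treated RT112, against 10.17, 10.11 and 10.08 in RT112 control. It rose by 1.08 ± 0.07 (adjusted p = 1.32e-06, limma), or 2.12-fold, and by 1.73 ± 0.08, or 3.32-fold, with arrays centred. Of all genes tested 2.54% had a higher change than TEAD1.

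TEAD3 was at 6.07, 6.04 and 6.05 in treated RT112, against 5.92, 6.0 and 5.77 in RT112 control. The lowest treated array lay just above the highest control array, and the deposited change was only 0.16 ± 0.06 (adjusted p = 0.0328, limma), while the centred one was 0.80 ± 0.05 (adjusted p = 3.19e-06). Without any single array of treated RT112, or without replicate 1 or 3 of RT112 control, the deposited change of TEAD3 lay between 0.09 and 0.17 and was not called, with limma adjusted p between 0.0518 and 0.0792. The call of TEAD3 in all 3 scalings is thus the least secure of the 6, and without it 5 of the 10 genes rose.

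TEAD2 and TEAD4 were not called alike in the 3 scalings. TEAD2 was at 5.24, 5.24 and 5.11 in treated RT112, against 5.27, 5.27 and 5.23 in RT112 control, which overlap. Its change was -0.06 ± 0.08 (adjusted p = 0.461, limma) on the deposited values and 0.59 ± 0.08 (adjusted p = 0.000273) on centred values. TEAD4 was at 5.16, 5.11 and 5.11 in treated RT112, against 5.81, 5.72 and 5.65 in RT112 control. TEAD4 was called lower by -0.60 ± 0.05 on the deposited values (adjusted p = 3.93e-06, limma) and changed by 0.05 on centred values, with a 95% confidence interval from -0.07 to 0.17 (adjusted p = 0.412).

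**Figure D2:**
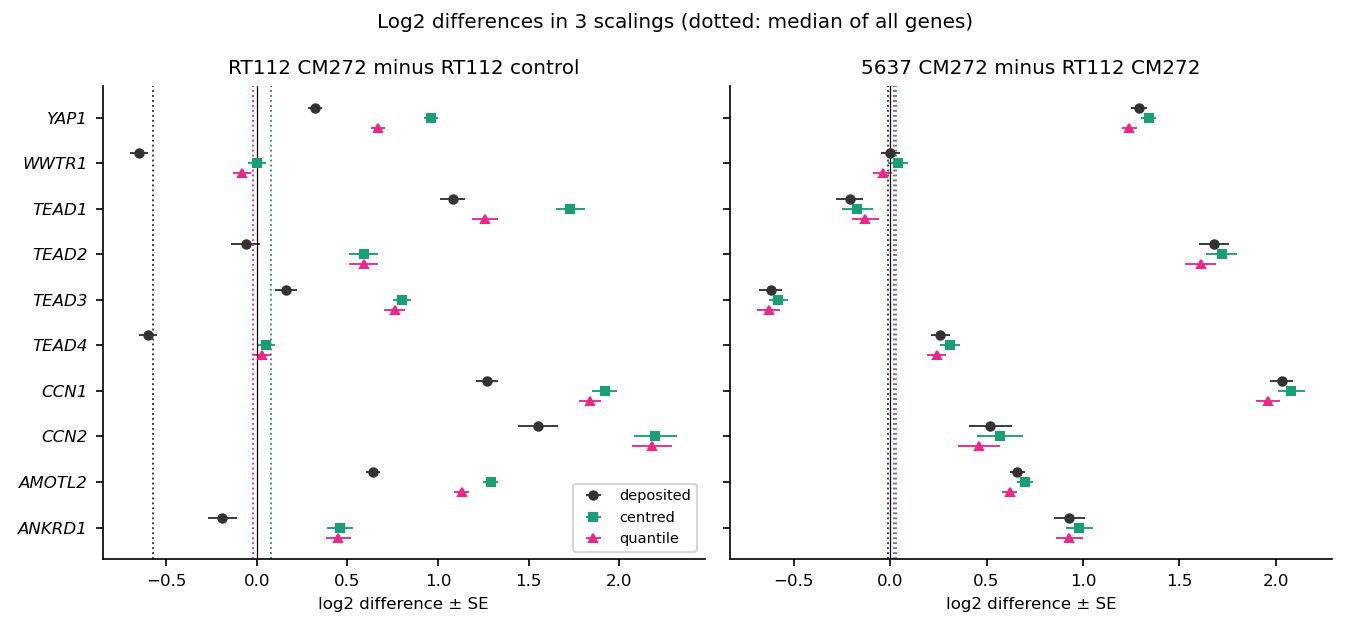
Log2 difference with its SE (horizontal axis) for each gene in 3 scalings, for RT112 CM272 minus RT112 control on the left and 5637 CM272 minus RT112 CM272 on the right; dotted lines mark the median of all genes in each scaling. On the left the median of all genes is -0.57 as deposited and 0.08 with arrays centred, and on the right these medians are -0.01 and 0.03.

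Counted together, 6 of the 10 genes were higher and 3 lower by limma on the deposited scale, where 10.8% and 74.2% of all genes were called. On centred values 8 were called higher and 0 lower, where 40.0% of all genes were higher and 27.8% lower, and after quantile normalization the counts were again 8 and 0, beside 32.9% and 35.1%. All treated arrays lay above all control arrays for 6 genes on the deposited values and for 8 on centred values, as was so for 11.1% and 42.1% of all genes. They lay below all control arrays for 3 genes on the deposited values and for 0 on centred values, beside 74.3% and 29.5% of all genes. The median log2 change of the 10 genes was 0.24 on the deposited values, against -0.57 for all genes, and 0.88 on centred values, against 0.08. For rises, the deposited scale is the strictest of the 3, since 2429 of the 2433 genes called higher on it were called higher in all 3, so agreement between scalings adds little. A fit without genes whose replicates were equal left out CCN2, WWTR1 and AMOTL2. Of the remaining 7 genes it called 4 higher and 1 lower on the deposited values, with TEAD3 at adjusted p = 0.0496 (limma) and ANKRD1 no longer called (adjusted p = 0.0528).

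**Figure D3:**
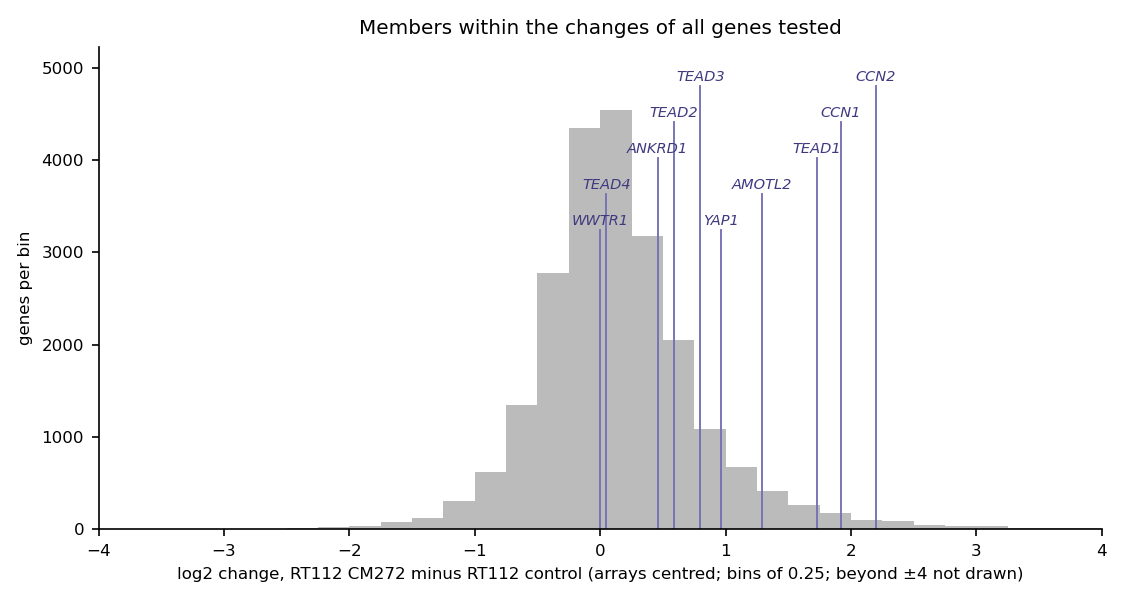
Number of genes (vertical axis) in bins of the log2 change of RT112 CM272 minus RT112 control on centred values (horizontal axis), with the 10 genes marked. CCN2, CCN1 and TEAD1 lie in the upper tail, with changes of 2.20, 1.92 and 1.73, and WWTR1 and TEAD4 lie at the centre of the distribution.

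Other genes of the pathway were listed by their known place in it, and some were called in each direction. Of 28 measured Hippo kinases and regulators, 6 rose and 6 fell in all 3 scalings in RT112, where 10.8% of all genes rose and 27.8% fell, and their median log2 change was -0.27 as deposited and 0.38 with arrays centred. LATS2, a kinase that inactivates YAP and whose gene is also a YAP target, rose by 0.80 ± 0.09 to 7.12, against 6.32 in RT112 control (adjusted p = 3.07e-05, limma). STK4, which encodes the upstream kinase MST1, rose by 0.54 ± 0.04, and FAT4, which encodes an atypical cadherin, by 0.85 ± 0.07. The FAT4 level was 5.76 in all 3 treated arrays, against a control mean of 4.90 that lay below the array median.

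Among the regulators that fell, the atypical cadherin gene FAT1 had the largest change, -2.29 ± 0.09 (adjusted p = 1.24e-07, limma), with 10.57 in treated RT112, against 12.86 in RT112 control. MOB1A, which encodes a coactivator of the LATS kinases, changed by -1.55 ± 0.16, and its control arrays spread from 11.05 to 11.81. LIMD1, which encodes a LIM-domain protein that binds LATS kinases, changed by -0.95 ± 0.05. With arrays centred these changes were -1.64 for FAT1, -0.90 for MOB1A and -0.30 for LIMD1.

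VGLL proteins also bind TEADs, partly in competition with YAP and TAZ. Of the 4 VGLL genes, VGLL2 rose and VGLL1 fell in all 3 scalings, beside the same 10.8% and 27.8% of all genes. VGLL1 was at 5.79, 5.56 and 5.38 in treated RT112, against 7.30, 6.94 and 7.03 in RT112 control, a change of -1.52 ± 0.12 (adjusted p = 3.89e-06, limma) and of -0.87 on centred values. VGLL2 rose by 0.39 ± 0.08 to 4.56, against 4.17 in RT112 control, and the control level lay below the array median.

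A list of 18 further genes reported elsewhere as YAP and TAZ targets divided in RT112, with 4 rising and 7 falling in all 3 scalings, again beside 10.8% and 27.8% of all genes. Its median change was -0.45 as deposited and 0.19 with arrays centred, close to the medians of all genes. CCDC80, which encodes a matrix-associated protein, was at 8.66, 8.56 and 8.66 in treated RT112, against 6.83, 6.86 and 7.14 in RT112 control, a rise of 1.68 ± 0.08 (adjusted p = 2.91e-07, limma). GADD45A, a stress and DNA damage response gene, rose by 1.19 ± 0.31, with control arrays between 7.85 and 8.91. LATS2, given above, and PTPN14, which encodes a phosphatase that binds YAP, stand in both this list and that of the regulators.

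Among the targets that fell, NT5E, which encodes the ecto-nucleotidase CD73, was at 7.59, 7.80 and 7.69 in treated RT112, against 9.68, 9.71 and 10.13 in RT112 control. Its change was -2.15 ± 0.12 (adjusted p = 4.54e-07, limma), and -1.50 on centred values. The tissue factor gene F3 changed by -1.46 ± 0.12, and FJX1, which encodes a four-jointed family protein, by -1.37 ± 0.11. With arrays centred these changes were -0.81 for F3 and -0.73 for FJX1. As deposited 4 genes of this list were higher and 10 lower, beside 10.8% and 74.2% of all genes, and with arrays centred 9 were higher and 7 lower, beside 40.0% and 27.8%, so the balance turned with the scale as it did over all genes.

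**Figure D4:**
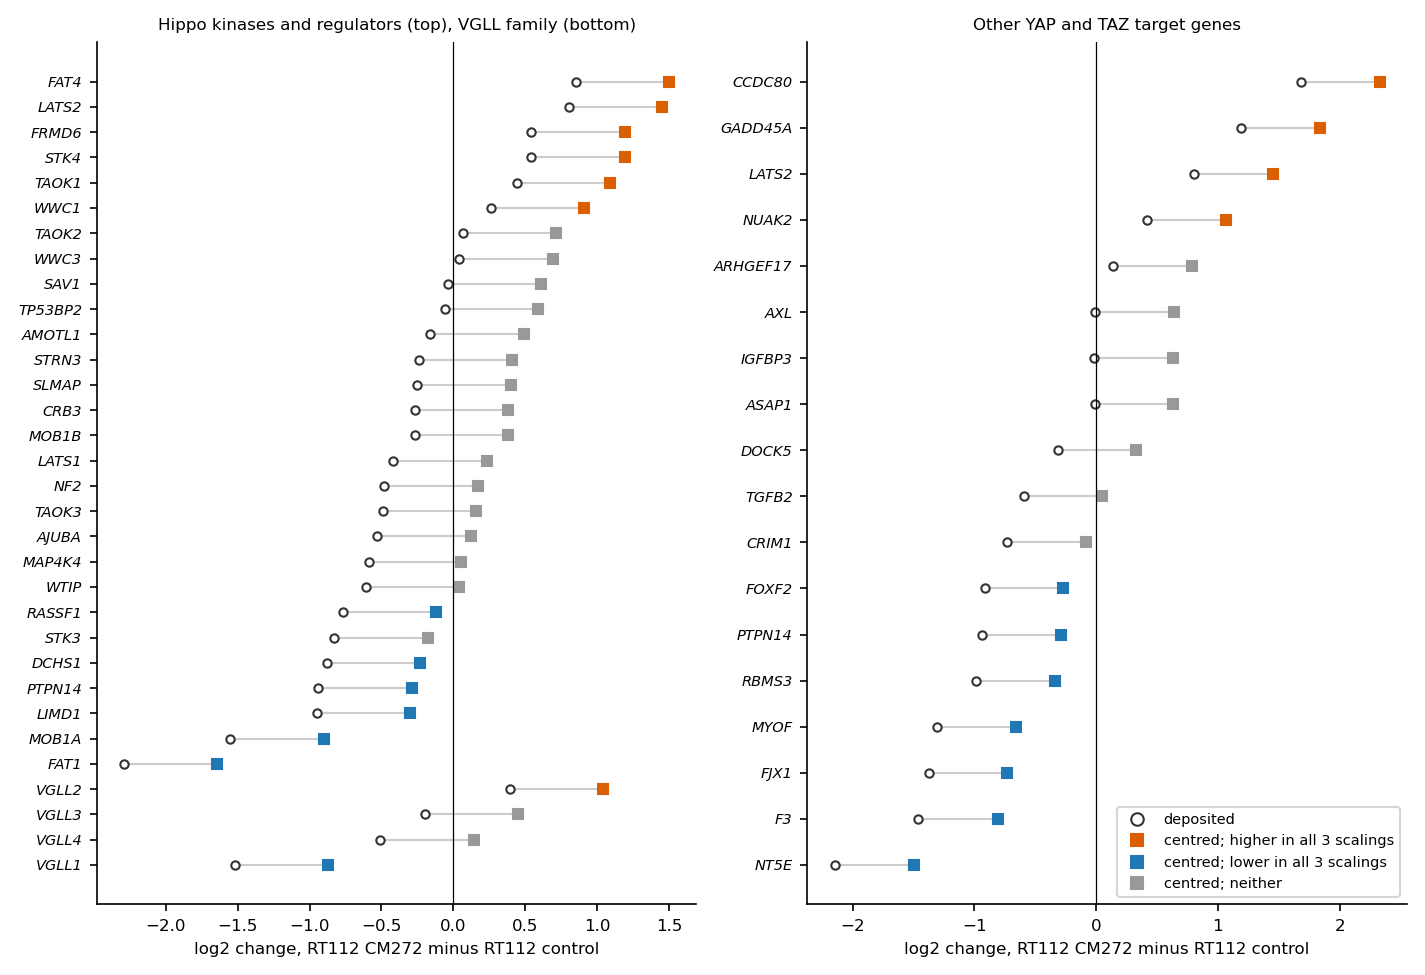
Log2 change of RT112 CM272 minus RT112 control (horizontal axis) for each measured gene of the pathway lists; open circles are deposited values and squares centred values, coloured where limma called the gene in the same direction in all 3 scalings. FAT4, LATS2 and CCDC80 lie at the upper ends and FAT1, VGLL1 and NT5E at the lower ends of their lists.

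Treated 5637 was set against treated RT112 to show how the lines differ under the compound. Of the 10 genes 7 were higher and 1 lower in treated 5637 in all 3 scalings, where 16.2% and 13.5% of all genes were. As deposited, 7 were called higher and 2 lower, beside 17.1% and 15.8% of all genes. Limma called 7 higher and 1 lower with centred arrays, beside 18.8% and 13.5%, and as many after quantile normalization, beside 17.0% and 15.8%. All treated 5637 arrays lay above all treated RT112 arrays for 7 of the 10 genes and below them for 1, beside 21.3% and 21.6% of all genes as deposited and 37.1% and 17.6% with arrays centred. The median gene differed between the treated lines by -0.01 as deposited and by 0.03 with arrays centred. A difference of line and a difference in the response to CM272 cannot be told apart here, and the comparison shares the treated RT112 arrays with the one above.

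All 4 target genes were higher in treated 5637. CCN1 was at 9.24, 9.31 and 9.27 in treated 5637, against 7.24 ± 0.11 (SD, n = 3) in treated RT112, a log2 difference of 2.03 ± 0.06 (SE; adjusted p = 1.48e-07, limma). CCN2 was at 6.89, 7.31 and 7.28, against 6.63 in treated RT112, a smaller difference of 0.52 ± 0.11 (adjusted p = 0.00647), and replicate 1 of treated 5637 stood below the other 2 arrays. AMOTL2 was at 8.30 in each of the 3 treated 5637 arrays, against 7.64 ± 0.04 in treated RT112, a difference of 0.66 ± 0.04 (adjusted p = 3.11e-06). ANKRD1, below the array median in both RT112 groups, was at 5.26, 5.27 and 5.22 in treated 5637, against 4.32 ± 0.16 in treated RT112, a difference of 0.93 ± 0.08 (adjusted p = 2.56e-05).

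Of the coactivators, YAP1 was higher in treated 5637 and WWTR1 was not called. YAP1 was at 10.11, 10.13 and 10.08 in treated 5637, against 8.82 ± 0.01 in treated RT112, a difference of 1.29 ± 0.04 (adjusted p = 7.1e-08, limma). WWTR1 was at 5.86, 5.93 and 5.78 in treated 5637, against 5.86 in treated RT112. The WWTR1 difference was -0.00, with a 95% confidence interval from -0.11 to 0.10, and 3 of the 9 pairs of treated arrays held exactly the same value, as at least 3 pairs did for 20.1% of all genes.

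The TEAD genes differed between the treated lines in both directions. TEAD2 was at 6.73, 6.87 and 7.03 in treated 5637, against 5.20 ± 0.07 in treated RT112, a difference of 1.68 ± 0.08 (adjusted p = 9.22e-07, limma). TEAD3 was at 5.45, 5.41 and 5.45, against 6.05 ± 0.01, a difference of -0.62 ± 0.06 (adjusted p = 5.69e-05). TEAD4 was higher in treated 5637 by 0.26 ± 0.05 (adjusted p = 0.00241), with 5.39 ± 0.01 there and 5.13 ± 0.03 in treated RT112.

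TEAD1 was at 10.94, 11.08 and 10.94 in treated 5637, against 11.22, 11.32 and 11.07 in treated RT112, and the groups overlapped. Its difference of -0.21 ± 0.07 was called on the deposited values (adjusted p = 0.0484, limma) but not on centred values, where it was -0.17 with a 95% confidence interval from -0.35 to 0.01 (adjusted p = 0.161). The deposited call was also lost without replicate 1 or 2 of treated RT112, without replicate 1 or 3 of treated 5637 and without any single RT112 control array, with differences between -0.21 and -0.16 and limma adjusted p between 0.0643 and 0.147. On centred values TEAD1 was called lower only without replicate 3 of treated RT112, at -0.24 (adjusted p = 0.0399, limma), which makes 2 genes lower there in place of 1.

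Set in order over the 3 groups on centred values, CCN1, CCN2, AMOTL2, YAP1, TEAD2 and ANKRD1 were highest in treated 5637, next in treated RT112 and lowest in RT112 control, and no groups overlapped between neighbours, as was so for 17.8% of all genes. On the deposited values 4 genes, CCN1, CCN2, AMOTL2 and YAP1, kept this order without overlap, as did 4.47% of all genes, whereas TEAD2 overlapped between the RT112 groups and ANKRD1 was lower in treated than in control RT112. TEAD3 was highest in treated RT112, at 6.26 ± 0.02 (SD, n = 3), with 5.68 ± 0.01 in treated 5637 and 5.45 ± 0.10 in RT112 control. TEAD1 was at 11.24 ± 0.09 in treated 5637 and 11.40 ± 0.14 in treated RT112, which overlapped, and at 9.67 ± 0.05 in RT112 control. TEAD4 was at 5.64 ± 0.02 in treated 5637, above both RT112 groups, which overlapped at 5.33 ± 0.03 in treated and 5.28 ± 0.08 in control cells. WWTR1 lay between 6.0 and 6.19 over all 9 arrays.

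Of the 18 further target genes, 12 were called higher in treated 5637 and 2 lower in all 3 scalings, beside 16.2% and 13.5% of all genes. AXL, a receptor tyrosine kinase gene, was at 13.61, 13.80 and 13.62 in treated 5637, against 8.62, 8.63 and 8.51 in treated RT112, a difference of 5.09 ± 0.07 (adjusted p = 1.18e-09, limma). TGFB2, which encodes a TGF-beta ligand, differed by 3.82 ± 0.13, and CRIM1, which encodes a membrane protein that binds BMPs, by 2.55 ± 0.11. MYOF, which encodes the membrane repair protein myoferlin, was lower by a difference of -0.81 ± 0.09, and LATS2 by -0.50 ± 0.09. Of the 28 regulators 9 were higher and 7 lower in all 3 scalings, beside the same shares. Among those higher were TAOK1, an upstream kinase gene, with a difference of 2.84 ± 0.10, AMOTL1, an angiomotin-family gene, with 2.16 ± 0.08 and FRMD6, a FERM-domain gene, with 1.87 ± 0.12. MOB1A, TAOK3 and LIMD1 were lower, with differences of -1.17 ± 0.16, -0.84 ± 0.07 and -0.78 ± 0.05.

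The 4 VGLL genes were all called in all 3 scalings, with VGLL2, VGLL3 and VGLL4 higher in treated 5637 by 1.31 ± 0.08, 1.03 ± 0.12 and 0.83 ± 0.04 and VGLL1 lower. VGLL1 was at 3.88 ± 0.05 in treated 5637, below the array median, against 5.58 ± 0.20 in treated RT112, a difference of -1.70 ± 0.12 (adjusted p = 1e-05, limma).

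The genes whose centred profile over the 9 arrays was most like that of CCN2, by Pearson's r among 17084 protein-coding genes, were ZSWIM3 (r = 0.999), SLC39A9 (r = 0.998) and IDH3B (r = 0.998). For WWTR1, whose profile was nearly flat, they were NHLRC3 (r = 0.887), HMOX2 (r = 0.878) and INPP5F (r = 0.869). These values describe 9 arrays in 3 groups that share a platform and its scaling, and high values are easily met among so many genes. CCN2, SLC39A9, WWTR1 and HMOX2 each held 3 equal deposited values in treated RT112, so their centred values there differed only through the array medians.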

How the data were processed

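Per the submitters' processing notes, the log2 values that the authors deposited (70523 rows, 12 arrays) came from RMA and Affymetrix Expression Console. Software versions and the build are not given in the sources used here. Their highest values lay near 19.9, so whether a step beyond RMA set the scale is not known. All folds rest on that scale, and come from the deposited values or, where said, from centred ones. Array precision is limited by 3 arrays a group. GEO's platform annotation gave 23781 rows exactly 1 gene symbol, 1543 several and 45199 none. Symbols were updated through Entrez IDs with the RefSeq table of GRCh38.p14, and the brightest row over 9 arrays was kept for the 479 genes with several rows, which left 22465 genes.

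Group means of 9 arrays were fitted by lmFit and eBayes (limma 3.58.1, R 4.3.3, 6 residual degrees of freedom, Benjamini-Hochberg adjustment over all genes). The fit was also run on simulated data with independent normal spread. Those data held neither the exact ties nor the shift of array medians seen here, so they do not show how the fit handles these. Alternatives were centred, quantile-normalized or blocked arrays, other gene filters and single arrays left out. Rows of the untreated 5637 arrays correlated with treated 5637 at r = 0.966 outside the transcript clusters and at 0.0274 within them. Named list genes were the up to 3 per direction and list with the largest change called in all 3 scalings. For CCN2 and WWTR1, the genes with the highest and lowest change in RT112, the 3 most correlated genes were named. The genes and lists were chosen with earlier results of these data known.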

Additional observations from a re-analysis of the deposited data

How the results depend on the processing

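Several calls changed with the scaling. In RT112 the number of the 10 genes called lower was 3 on the deposited values, 0 with centred arrays, 0 after quantile normalization and 1 without genes whose replicates were equal, a fit that held 7 of the 10 genes. TEAD2, TEAD4 and ANKRD1 changed sign, to 0.59, 0.05 and 0.46 with centred arrays and to 0.59, 0.03 and 0.45 after quantile normalization. Hippo regulators called higher numbered 6 on the deposited values, 16 centred and 14 after quantile normalization, and those called lower 16, 6 and 9. For VGLL genes the counts were 1, 3 and 2 higher and 2, 1 and 1 lower, and for other targets 4, 9 and 7 higher. Between treated lines, genes called lower numbered 2 on the deposited values and 1 with centred arrays, quantile normalization, the fit of the 2 groups compared, eBayes with trend and robust settings, or without genes with equal replicates, and between 1 and 2 on leaving out single arrays on either scale. The WWTR1 difference between lines was 0.04 with centred arrays and ranged from -0.04 to 0.03 on leaving out single arrays, and from -0.00 to 0.08 on centred values. The WWTR1 change in RT112 ranged from -0.04 to 0.01 on centred values. On leaving out single arrays, genes called higher in RT112 numbered 5 to 6 and those called lower 2 to 3 on the deposited values, with 8 higher throughout on centred values. On centred arrays, the fits without single arrays and with the replicate block were chosen after seeing the data.

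With the replicate number as a block, 5 of the 10 genes were called higher and 2 lower in RT112, and TEAD3 (adjusted p = 0.0538, limma) and ANKRD1 (adjusted p = 0.0581) lost their deposited calls, while on centred values the counts stayed at 8 and 0. The fit of only the 2 groups compared likewise gave 5 higher and 2 lower in RT112, without the calls of TEAD3 (adjusted p = 0.0679, limma) and ANKRD1 (adjusted p = 0.0863). Deviations of arrays with the same number correlated between -0.089 and 0.039. Arrays with different numbers were not set beside them, so whether samples with the same number share more than it cannot be read from these values.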
